A study of Mus musculus with 6 samples.

Results

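The 46 genes described here encode the machinery that takes a cell from G2 through mitosis. They were chosen by name, and each was found as a row of all 6 deposited tables, so 46 of 46 members were present among 25330 genes in all. The samples were RNA-seq libraries of AML12 cells, a wild-type mouse hepatocyte line derived from a mouse that carried a human TGF-alpha transgene. In the 3 Control libraries the cells had been kept at 21% oxygen in DMEM/F12 medium with serum, an insulin, transferrin and selenium supplement and dexamethasone. In the 3 hypoxia-reoxygenation libraries (labelled H6R2, called H/R here) the medium had been exchanged for one without serum and without glucose, and the cells had spent 6 h at 1% oxygen and 2 h after reoxygenation. The loss of oxygen, of serum and of glucose cannot be told apart in this design, and no library analysed here came from cells given the second medium at 21% oxygen. The labels do not say whether replicates came from separate cultures, so p-values measure only the spread between these libraries.

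Entry into mitosis is driven by the kinase CDK1 bound to cyclin A or cyclin B, which CDC25 phosphatases switch on. Polo-like and Aurora kinases then build the spindle, the spindle assembly checkpoint holds the anaphase-promoting complex (APC/C) inactive until every kinetochore is attached, and separase finally frees the sister chromatids. Messenger RNAs of most of these proteins are low in G1 and highest in G2 and mitosis, under control of the DREAM complex, of MuvB with B-MYB, and of FOXM1. Adult hepatocytes are largely quiescent, whereas AML12 cells divide in culture.

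Many G2/M promoters are known to carry a CHR (cell cycle genes homology region), an element with the letters TTTGAA that the MuvB complex contacts, and CCAAT boxes, which the factor NF-Y binds. RefSeq promoter sequences of 300 bases, 250 before and 50 after the transcription start on GRCm38.p6, were matched by symbol for 38 of the 46 members, which gave 41 promoters because Bub3, Ect2 and Prc1 had a pair of overlapping starts each. No entry was matched for Aurkb, Ccna2, Cdc25c, Foxm1, Incenp, Kif20a, Smc4 and Tpx2. The stretches below are the 130 bases before the start, on the strand of the gene, with every TTTGAA and CCAAT match on either strand in capitals (TTCAAA and ATTGG are the same motifs on the other strand). They show promoters with both motifs of genes that fell by different amounts (Espl1, Cdk1, Cdc20, Top2a and Kif11), with CCAAT alone (Cks2), and with neither (Birc5).
Espl1, chr15:102296163-102296292, plus strand: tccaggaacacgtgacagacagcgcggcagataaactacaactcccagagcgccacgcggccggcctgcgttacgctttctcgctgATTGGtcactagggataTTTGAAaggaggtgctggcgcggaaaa
Cdk1, chr10:69352913-69353042, minus strand: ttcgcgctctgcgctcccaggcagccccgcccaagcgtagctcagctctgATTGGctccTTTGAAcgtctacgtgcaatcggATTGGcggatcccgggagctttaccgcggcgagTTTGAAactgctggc
Cdc20, chr4:118437344-118437473, minus strand: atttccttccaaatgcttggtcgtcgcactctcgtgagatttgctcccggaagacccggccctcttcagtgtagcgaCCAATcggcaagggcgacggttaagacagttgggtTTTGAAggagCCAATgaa
Top2a, chr11:99024190-99024319, minus strand: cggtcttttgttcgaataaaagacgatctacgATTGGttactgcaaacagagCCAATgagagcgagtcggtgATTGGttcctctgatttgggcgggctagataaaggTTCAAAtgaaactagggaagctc
Kif11, chr19:37376252-37376381, plus strand: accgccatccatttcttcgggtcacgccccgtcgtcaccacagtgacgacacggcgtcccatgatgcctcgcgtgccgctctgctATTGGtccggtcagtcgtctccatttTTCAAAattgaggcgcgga
Cks2, chr13:51645102-51645231, plus strand: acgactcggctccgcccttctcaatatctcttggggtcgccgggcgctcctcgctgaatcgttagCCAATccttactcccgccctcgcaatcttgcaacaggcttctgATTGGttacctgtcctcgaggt
Birc5, chr11:117849107-117849236, plus strand: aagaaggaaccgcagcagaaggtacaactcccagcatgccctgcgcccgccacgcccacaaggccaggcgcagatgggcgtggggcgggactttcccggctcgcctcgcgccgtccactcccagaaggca

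In Espl1, Cdk1, Cdc20, Top2a and Kif11 a CHR match lay within the last 30 bases before the start, and CCAAT matches lay upstream of it and, in Cdc20, also downstream. TTTGAA occurred in 30 of the 41 member promoters (73.2%) and in 17.9% of all 32851 promoters of the same length. CCAAT occurred in 34 of the 41 member promoters (82.9%) and in 37.4% of all promoters, and both motifs occurred together in 28 member promoters (68.3%) and in 6.95% of all promoters. The motifs were searched on both strands, and in 1 member promoter a CCAAT and a TTTGAA match shared bases. Of the 38 TTTGAA matches in member promoters, 27 (71.1%) began at or after position -30 counted from the start site, against 19.3% of the 6737 matches in all promoters. Of the 77 CCAAT matches in member promoters, 27.3% began at or after position -30, against 20.05% of the matches in all promoters. Sites shared by the overlapping promoters of Bub3, Ect2 and Prc1 were counted once for each start, so the matches are not all distinct sites. All of them are matches of letters, not measured binding.

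**Figure D1:**
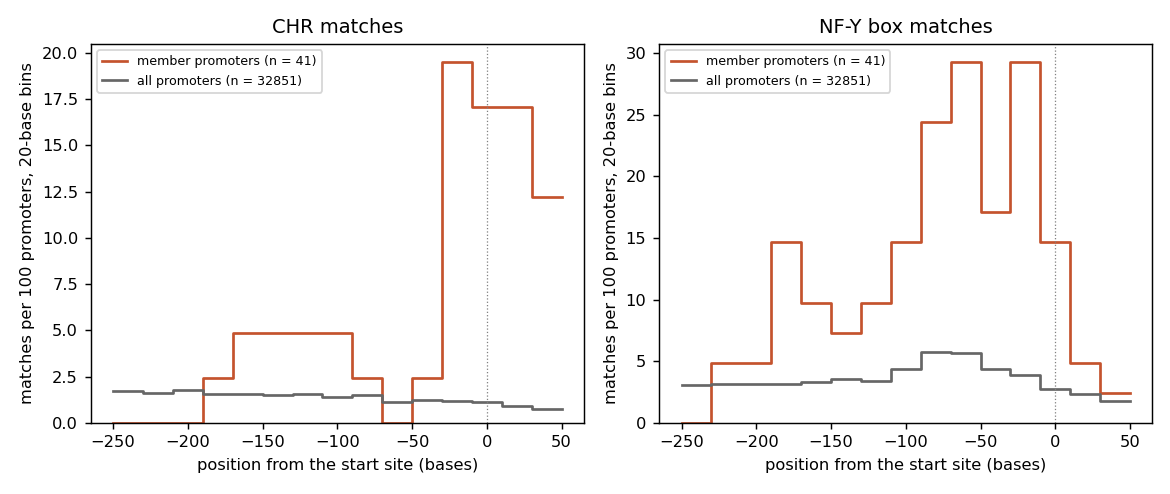
Matches of the CHR hexamer (left) and of the NF-Y box (right) per 100 promoters in 20-base bins, by the position of the first base of the match from the RefSeq start site, in the 41 member promoters and in all 32851 promoters. In member promoters 27 of 38 CHR matches began at or after position -30, while matches in all promoters were spread over the window.

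In each library 20438746 to 21854790 reads had been counted. Of 13 hepatocyte markers listed, 11 were high enough to be tested in these cells. Among them were Hnf4a (2912 ± 104 normalized counts in Control, SD, n = 3) and albumin at a low level (542, 132 and 209 counts in Control replicates 1, 2 and 3). The other markers, Apoa2 and Serpina1a, had 60 and 61 counts in Control replicate 1 and at most 1 in any other library. Of the 11 tested, 8 were lower and 3 were higher in H/R. In the list of markers of blood, endothelial, Kupffer and stellate cells (13 of 14 genes found), summed counts were 35 to 38 in Control and 125 to 160 in H/R libraries, of which Cd68, a lysosomal protein of macrophages that other cells also make, gave 16 to 22 and 113 to 137. Beside Cd68 no gene of that list exceeded 13 counts in any library. Control replicate 1 held transcripts of adult liver, with 644 summed counts over 16 genes. The sums were 139 and 153 in the other Control libraries and 67 to 101 in H/R. Hpx, a gene of this list found in every library, made up nearly all of these smaller sums. By replicate order its counts were 178, 134 and 142 (Control) and 66, 64 and 98 (H/R). Fga, a fibrinogen chain, gave 61 counts in Control replicate 1 and 0 in every other library. The rRNA share was 0.60% in Control replicate 1 and 0.13% to 0.20% elsewhere. Without Control replicate 1 the number of members called lower was again 40.

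All 46 members passed the filter on low counts and were tested, the smallest count of any member in any library being 245. In H/R cells 40 of the 46 members were lower than in Control cells and 0 were higher (edgeR quasi-likelihood test, adjusted p under 0.05 over 14020 genes). Among all genes tested, 31.8% were lower and 31% were higher by the same rule. All 46 fitted log2 fold changes were negative, with a median of -0.47 beside -0.01 over all genes tested, and the member in the middle was therefore about 27.7% lower. The 40 members called were 13.2% (Prc1) to 54.4% (Aurkb) lower. In 42 of the 46 members every H/R library lay below every Control library, which held for 33.5% of all genes tested. At the stricter rule that also asks for at least a 2-fold change, 1 member was lower, Aurkb, and 4.27% of all genes tested were, so nearly all of the falls were smaller than 2-fold and the members did not exceed the other genes by this rule. With the fold threshold at 1.5, 18 of the 46 members were lower, beside 13% of all genes tested. In bulk RNA, fewer cells in G2 and mitosis and less of each mRNA per cell cannot be told apart.

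The 46 genes together held 0.868% to 0.954% of the counts in the Control libraries and 0.588% to 0.594% in the H/R libraries. Without Incenp, the most abundant member, they held 0.728% to 0.797% in Control and 0.495% to 0.511% in H/R. Relative to the Control mean, the log2 level of the median member was 0.01, 0.02 and -0.05 in replicates 1, 2 and 3 of Control and -0.52, -0.49 and -0.48 in those of H/R.

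**Figure D2:**
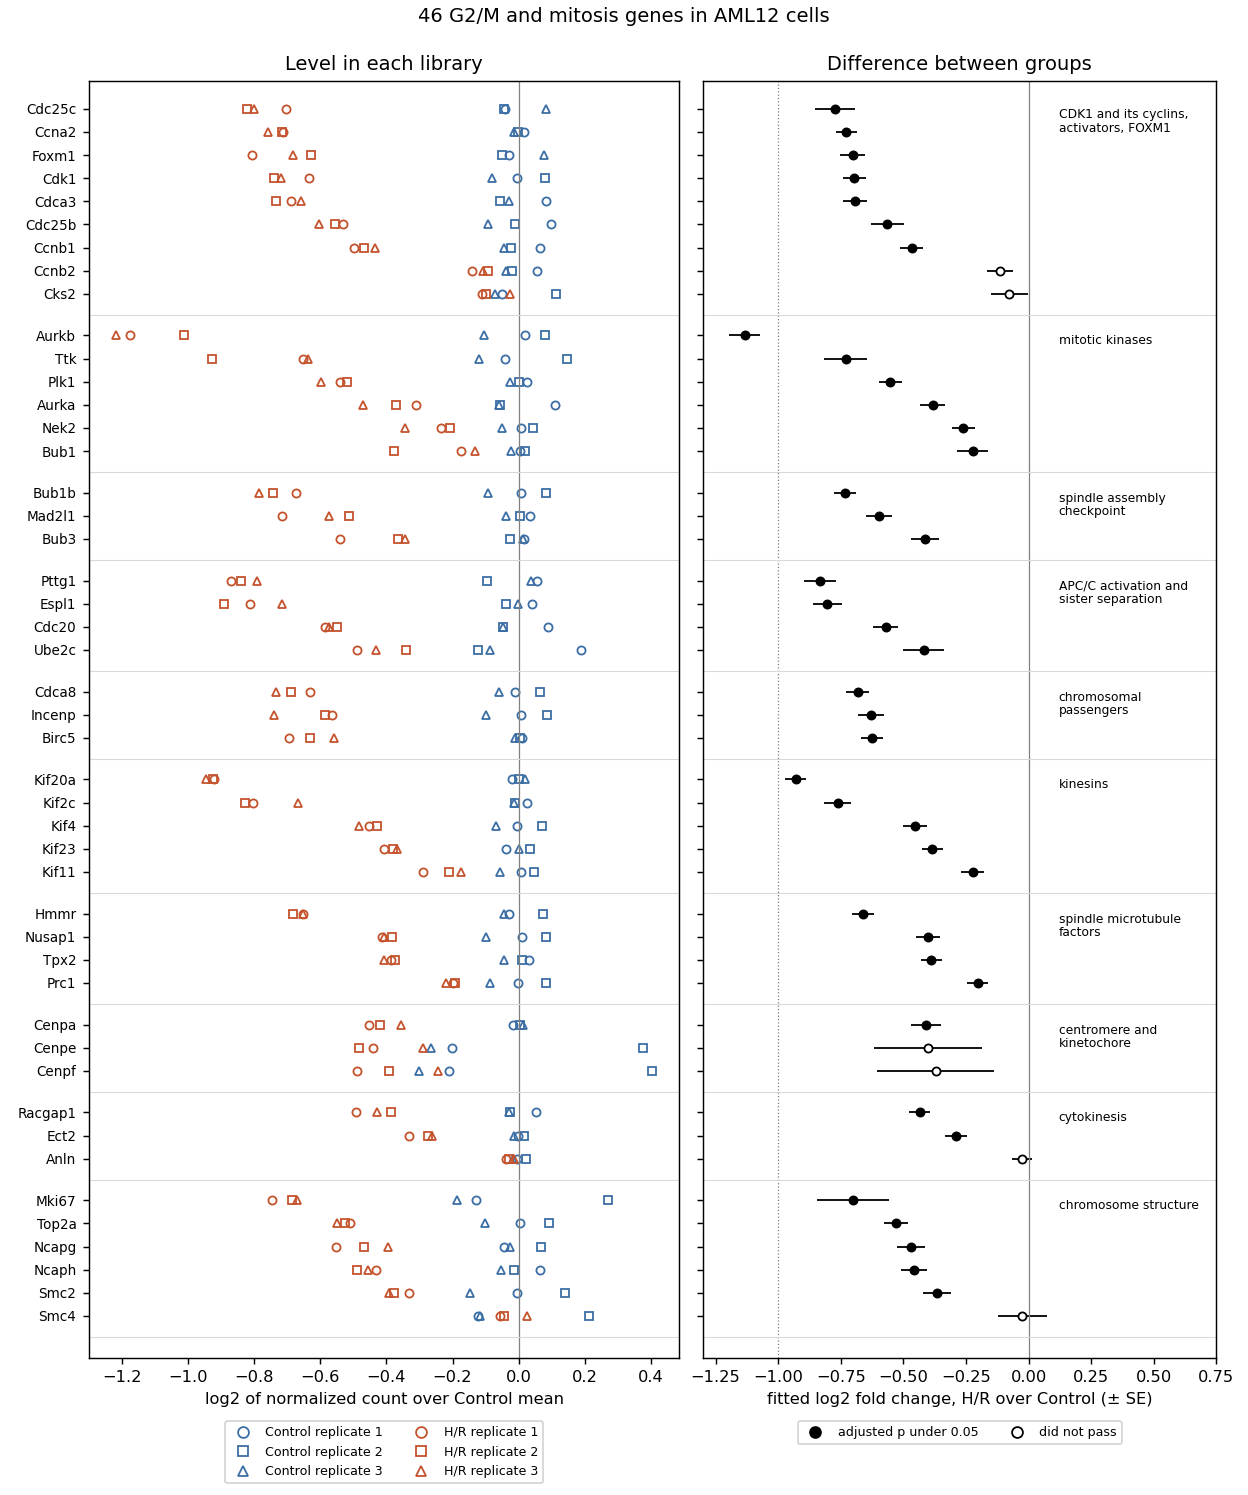
Left, the log2 ratio of each member's normalized count in each of the 6 libraries to its Control mean; right, the fitted log2 fold change of H/R over Control with its standard error, filled where the adjusted p was under 0.05 and with a dotted line at a 2-fold fall. Members are grouped by role, all 46 points on the right lie below 0, and Aurkb alone lies beyond the dotted line.

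Of the 9 members around CDK1, 7 were lower. Cdk1 (chr10:69336635-69352938, minus strand, GRCm38), the kinase that drives entry into mitosis, gave normalized counts of 3508, 3722 and 3328 in replicates 1, 2 and 3 of Control and of 2269, 2107 and 2140.5 in the 3 H/R libraries. All series of values below keep this order of replicates. Every H/R value lay below every Control value, and the fitted log2 fold change was -0.70 ± 0.05 (SE, adjusted p = 4.14e-15). Of its cyclins, Ccna2 was lower by a log2 fold change of -0.73 and Ccnb1 by -0.47, whereas Ccnb2, the second B-type cyclin, had a value of -0.11 ± 0.05 and did not pass (adjusted p = 0.0598). Ccnb1 (chr13:100778650-100786570, minus strand) had 2629, 2470.5 and 2436 normalized counts in Control and 1778, 1815 and 1858 in H/R, without overlap (adjusted p = 6.3e-11). Among the 3 cyclins the values thus ran from -0.73 for cyclin A2 to -0.11 for cyclin B2.

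Cdc25c, a phosphatase that activates CDK1, showed the largest fall of this role group. Its normalized counts were 454, 453 and 494 in Control and 286, 264 and 268 in H/R (log2 fold change -0.77 ± 0.08, adjusted p = 2.29e-10). Cdc25b, a related phosphatase, stood at -0.56, and Cdca3, which serves in the degradation of the CDK1 inhibitor WEE1, at -0.69. Foxm1 (chr6:128362967-128376146, plus strand), the transcription factor that switches on many G2/M genes, gave 2057, 2027 and 2214 normalized counts in Control and 1199.8, 1359 and 1309 in H/R. The values did not overlap, and the log2 fold change was -0.70 ± 0.05 (adjusted p = 3.76e-14). Cks2, a small CDK-binding subunit, had a log2 fold change of -0.08 ± 0.07 with overlapping libraries (adjusted p = 0.376).

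All 6 mitotic kinases were lower. Aurkb (chr11:69045647-69051664, plus strand), the catalytic subunit of the chromosomal passenger complex, had the largest fall of all members, from 1267, 1322 and 1165 normalized counts in Control to 554, 620.1 and 538 in H/R. Every H/R library lay far below every Control library, and the log2 fold change was -1.13 ± 0.06 (adjusted p = 2.9e-17). Plk1 (chr7:122159439-122169873, plus strand), the kinase that promotes mitotic entry and spindle assembly, was at 2234, 2196 and 2154 normalized counts in Control and 1508, 1531 and 1450.0 in H/R (log2 fold change -0.55 ± 0.05, adjusted p = 1.19e-12). Ttk, the checkpoint kinase MPS1, stood at -0.73, and Aurka, the Aurora kinase of the spindle poles, at -0.38. Nek2, a centrosomal kinase, and Bub1, a checkpoint kinase, had the smallest changes of the group, -0.26 and -0.22.

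The chromosomal passenger complex, which corrects faulty attachments between kinetochores and microtubules, fell in all of its subunits. Beside Aurkb, its targeting subunits Cdca8 (borealin), Incenp and Birc5 (survivin) had log2 fold changes of -0.68, -0.63 and -0.63. Cdca8 showed 2681, 2826 and 2594 normalized counts in Control and 1745, 1675 and 1625 in H/R, with no overlap (SE 0.05, adjusted p = 7.5e-15). Aurkb, the kinase subunit, thus had a larger fall than each of the subunits that position it, a difference between genes that was not tested.

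Incenp stood apart from the other members in its level. Per length its RPKM (reads per kilobase of exon, scaled to the library total) was 461 ± 24.9 in Control and 277 ± 15.6 in H/R (SD, n = 3), rank 124 of the 14020 genes tested in Control. The next members in Control were Top2a at 104 ± 5.93, Tpx2 at 96.7 ± 1.10 and Mki67 at 77.5 ± 13.6, and the median member stood at 30.3. Top2a and Tpx2 differed by little more than the spread of Top2a, while Incenp lay far above both. The lowest members were Ttk at 5.24 ± 0.47, Cenpa at 6.79 ± 0.18 and Ncapg at 7.51 ± 0.33. Incenp (chr19:9872297-9899533, minus strand) shares no exon with another gene of the tables, and the reason for its level was not tested. Across the 46 members the log2 fold change had almost no relation to the log2 RPKM in Control (Pearson's r = 0.01, Spearman's rho = 0.02, across genes that share the same 6 libraries).

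**Figure D3:**
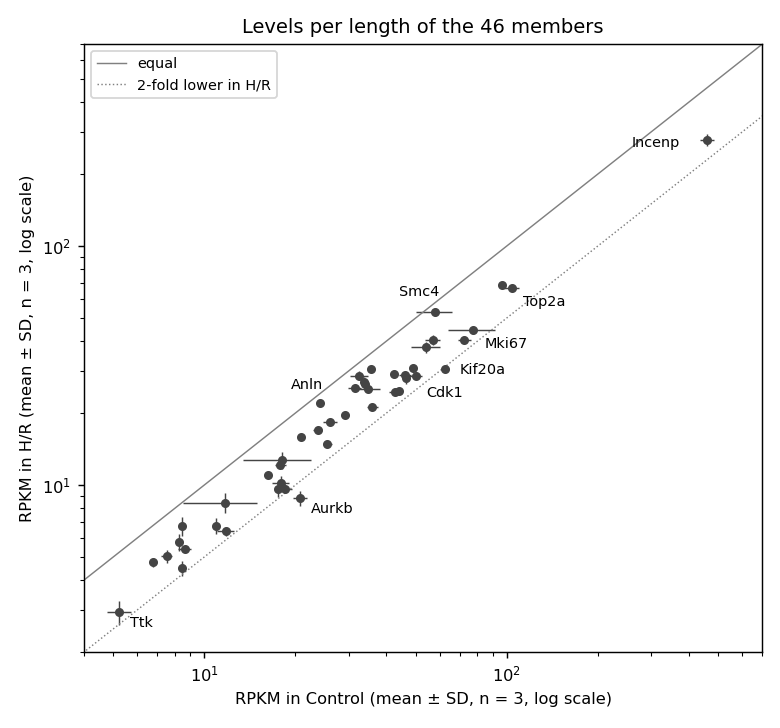
RPKM of the 46 members in Control and H/R libraries (mean ± SD, n = 3 each, log axes), with a line of equal levels and a dotted line at a 2-fold lower level in H/R. Levels ran from Ttk to Incenp over nearly the whole axis, and members at every level lay below the line of equal levels; on this scale, which uses library totals, Kif20a and Aurkb lie below the dotted line.

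The spindle assembly checkpoint and the machinery it restrains were lower as well. Bub1b (chr2:118598211-118641591, plus strand), which encodes the checkpoint protein BUBR1, had 6353, 6695 and 5931 normalized counts in Control and 3969, 3783 and 3668 in H/R (log2 fold change -0.73 ± 0.05, adjusted p = 7.28e-16). Mad2l1, whose product MAD2 binds and blocks CDC20, stood at -0.60, and Bub3, its partner in the checkpoint complex, at -0.41. Cdc20, the APC/C activator that they inhibit, was at -0.57, so inhibitors and target were lower side by side. Ube2c, the ubiquitin-conjugating enzyme of the APC/C, was at -0.42 ± 0.08. Pttg1 (chr11:43420250-43426251, minus strand), the securin that the APC/C destroys to free separase, was at 781, 704 and 772 normalized counts in Control and 411, 421 and 435 in H/R (log2 fold change -0.83 ± 0.07, adjusted p = 2.67e-13). Espl1, which encodes separase itself, was lower by nearly the same amount, at -0.80 ± 0.06.

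Among the 5 kinesins, motor proteins that move along spindle microtubules, the fall ranged from -0.93 to -0.22. Kif20a, a kinesin of the central spindle and of cytokinesis, gave 4787, 4857 and 4927 normalized counts in Control and 2567, 2557 and 2522 in H/R (log2 fold change -0.93 ± 0.04, adjusted p = 6.6e-20). Its exons overlap those of Cdc23 on the opposite strand over a fraction of 0.332 of their length, and reads of the pair cannot be told apart where counting ignored strand. Kif2c, the microtubule depolymerase MCAK, stood at -0.76, the chromokinesin Kif4 at -0.45 and Kif23, the motor of centralspindlin, at -0.38. Kif11, the motor that pushes the spindle poles apart, changed least at -0.22 ± 0.04.

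Of the spindle microtubule factors, Hmmr, a spindle-associated hyaluronan receptor, fell most, from 3903, 4191 and 3862 normalized counts in Control to 2536, 2482 and 2535 in H/R (log2 fold change -0.66 ± 0.04, adjusted p = 2.98e-15). Nusap1 and Tpx2, which bind and stabilise spindle microtubules, stood at -0.40 and -0.39, and Prc1, which bundles the microtubules of the central spindle, at -0.20 ± 0.04. In the cytokinesis group Racgap1, the other subunit of centralspindlin, had 6332, 5997 and 5988 normalized counts in Control and 4345, 4668 and 4537 in H/R (log2 fold change -0.43 ± 0.04, adjusted p = 4.29e-11). Ect2, the exchange factor that activates RhoA at the cleavage furrow, stood at -0.29. Anln, the actin-binding scaffold of the contractile ring, held 4443, 4527 and 4400 normalized counts in Control and 4345, 4368 and 4414 in H/R and did not pass (log2 fold change -0.03 ± 0.04, adjusted p = 0.587). All 3 genes placed in this group had values nearer to 0 than the median member, Racgap1 by less than its SE. This depends on the grouping, since Kif20a, placed with the kinesins, had a value of -0.93.

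Of the centromere genes, Cenpa, the histone variant that marks centromeres, was lower, with 803, 815 and 820.0 normalized counts in Control and 593, 607 and 635 in H/R (log2 fold change -0.41 ± 0.06, adjusted p = 2.3e-07). Cenpe, a kinetochore kinesin, and Cenpf, a large kinetochore protein, had fold changes of similar size but did not pass, and in both of them 1 Control library stood far from the others. Cenpe stood at 2757, 4117 and 2642 normalized counts in Control and at 2336, 2268 and 2595 in H/R (log2 fold change -0.40 ± 0.21, adjusted p = 0.182). Cenpf stood at 3195, 4894 and 3002 in Control and at 2633, 2816 and 3119 in H/R (log2 fold change -0.37 ± 0.23, adjusted p = 0.245). In both genes Control replicate 2 was more than 1.5 times the mean of the other Control libraries.

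Mki67 (chr7:135689784-135716361, minus strand), which encodes the proliferation antigen Ki-67 that coats mitotic chromosomes, showed the same library. It had 14581, 19225.5 and 13996 normalized counts in Control and 9506, 9906 and 10002 in H/R, with no overlap (log2 fold change -0.70 ± 0.14, adjusted p = 0.0123). Smc4, a core condensin subunit, had 5675, 7155 and 5695 in Control and 5938, 5988 and 6284 in H/R (log2 fold change -0.02 ± 0.10, adjusted p = 0.851). Without Control replicate 2, Cenpe was called lower at a smaller value (-0.17 ± 0.05, adjusted p = 0.00329), Cenpf was at -0.12 ± 0.05 (adjusted p = 0.0647), Mki67 was at -0.54 ± 0.04 (adjusted p = 7.68e-15), and Smc4 changed sign to 0.09 ± 0.04 without passing (adjusted p = 0.0546). The falls of Cenpe and Cenpf thus shrank by more than 1.5 times without that library. The median over the members was -0.48 without it, and 41 members were called lower. Why these genes stood high in Control replicate 2 was not tested.

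**Figure D4:**
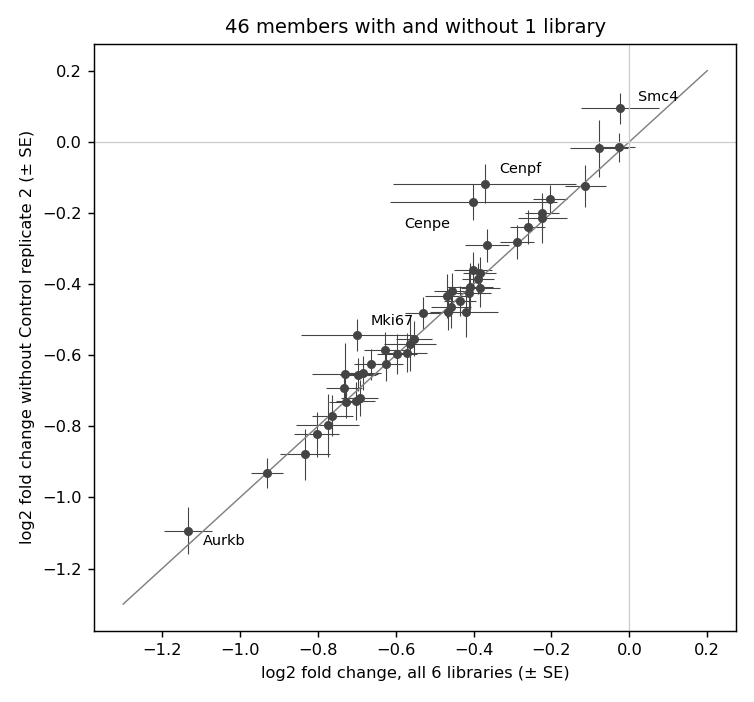
Fitted log2 fold change of the 46 members from all 6 libraries (horizontal) and without Control replicate 2 (vertical), with standard errors and the line of equality. Most members lie on the line, while Cenpe, Cenpf, Mki67 and Smc4 lie above it with wide horizontal bars, and Smc4 crosses 0.

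The remaining chromosome genes were lower. Top2a (chr11:98992943-99024189, minus strand), the topoisomerase that untangles sister DNA, had 19177, 20397 and 17845 normalized counts in Control and 13431, 13286 and 13082 in H/R, without overlap (log2 fold change -0.53 ± 0.05, adjusted p = 8.77e-12). The condensin I subunits Ncapg and Ncaph stood at -0.47 and -0.46 and Smc2, the partner of Smc4 in condensin, at -0.37. The 2 SMC subunits of the same complex therefore differed, Smc2 with a lower value that passed and Smc4 with a value near 0 that did not, though the difference between them was not tested.

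The change of members with and without each motif is given as a description, and no difference was tested. It leaves out the 8 members without a promoter entry, among them the largest falls. Their log2 fold changes were -1.13 (Aurkb), -0.93 (Kif20a), -0.77 (Cdc25c), -0.73 (Ccna2), -0.70 (Foxm1), -0.63 (Incenp), -0.39 (Tpx2) and -0.02 (Smc4). The median log2 fold change was -0.45 for the 27 members with a TTTGAA match and -0.46 for the 11 without one, and -0.43 for the 31 members with a CCAAT match and -0.60 for the 7 without one. Of the 5 members with neither motif in the window, Pttg1 had a log2 fold change of -0.83, Birc5 of -0.63, Mad2l1 of -0.60, Ncaph of -0.46 and Nusap1 of -0.40. Among the promoters printed above, Espl1 and Kif11 both hold the 2 motifs within 50 bases of the start and had values of -0.80 and -0.22.

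Other genes of the pathway moved less uniformly than the members. Of 153 further G2/M genes in 7 lists, 93 were lower and 28 were higher by the adjusted p, with a median log2 fold change of -0.30. The members had been chosen with earlier results of these data known, and the difference between the members and these lists was not tested. In the list of other kinesins, spindle and cytokinesis genes 25 of 32 were lower and 3 higher (median -0.47), led by Fam64a (-1.29), Kif14 (-1.17), a kinesin of the midbody, and the tubulin gene Tubb4b (-1.07). Higher in that list were Numa1 (0.32), which anchors spindle poles, Ckap5 (0.20), a microtubule polymerase, and Kif18b (0.14). In the kinetochore and centromere list 27 of 38 were lower and 4 higher (median -0.36). The NDC80 complex, the main microtubule coupler of the kinetochore, had 3 of its 4 subunits lower and 1 higher. Nuf2 (-1.14 ± 0.05), Spc25 (-1.05 ± 0.05) and Ndc80 (-0.33 ± 0.05) were lower and Spc24 (0.26 ± 0.05) was higher. Cenpi (-1.12) also fell, and Cenpt (0.37) and Cenpp (0.29), further proteins of the inner kinetochore, rose.

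In the condensin and mitotic chromatin list 10 of 13 genes were lower, among them lamin B1 (Lmnb1, -0.86), H2afx (-0.76) and Hmgb2 (-0.55), and 1 was higher, the condensin II subunit Ncaph2 (0.14). In the mitotic entry list 10 of 20 were lower and 5 higher (median -0.25). Pbk (-1.40) and Melk (-0.81), kinases of dividing cells, and Gsg2 (-0.57), the histone H3 kinase haspin, were lower, while the Hippo kinases Lats2 (1.06 ± 0.06) and Lats1 (0.33) and the centriole kinase Plk4 (0.31) were higher. Over the 7 lists 11 of the 153 genes fell by at least 2-fold, and Lats2 alone rose by as much. Among all 14020 genes tested, 599 fell and 596 rose by this rule. Lats2 fell just short of 2-fold under upper quartile scaling (log2 fold change 0.99) and under library totals alone (0.96). It stayed higher by the adjusted p in both (1.52e-15 and 1.13e-14 by edgeR).

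The APC/C, cohesin and DREAM lists held genes called in both directions, as did all genes tested (31.8% lower and 31% higher), and the cohesin and DREAM counts lay near these shares. Of 17 APC/C subunits and inhibitors 8 were lower and 3 higher (median -0.11), with Anapc11 (-0.83), Cdc23 (-0.82, which shares exon sequence with Kif20a) and the inhibitor Fbxo5 (-0.57) lower, and Cdc27 (0.42), Cdc16 (0.30) and Anapc16 (0.16) higher. Of 15 cohesin and shugoshin genes 6 were lower and 6 higher (median 0.11). There the genes for S-phase and mitotic cohesin factors Esco2 (-1.005), Cdca5 (-0.73) and Sgol1 (-0.51) fell, and Wapl (0.43), which unloads cohesin, Stag2 (0.41), a core subunit, and Esco1 (0.27) rose. Of 18 DREAM and MuvB genes 7 were lower and 6 higher (median 0.04). E2f8 (-1.37), Mybl2 (-0.95), which encodes B-MYB, and Tfdp1 (-0.93) were lower, and E2f5 (0.78), the MuvB subunit Lin37 (0.54) and E2f4 (0.46) were higher. Components of the repressive DREAM complex stood on both sides, with Tfdp1 and Rbl1 (-0.80), which encodes p107, lower and E2f4, E2f5 and Lin37 higher. The scaling of the libraries bears on the lists near 0. The APC/C list became 13 lower and 2 higher both when libraries were scaled by upper quartiles and when by totals alone (medians -0.18 and -0.22), and the cohesin list became 7 lower and 4 higher with the former and 7 lower and 2 higher with the latter (medians 0.04 and 0.0087). With upper quartile scaling the DREAM median turned to -0.03, and with library totals alone it turned to -0.07. Of the higher genes named here, Kif18b, Cenpp, Ncaph2, Anapc16 and Esco1 no longer passed under either scaling, and Ckap5 no longer passed under library totals alone. Genes not named here also lost this call. The 28 higher genes of all further lists became 22 under upper quartile scaling and fewer still under library totals alone.

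The phases before G2 were compared by counts alone. In a list of DNA replication genes 35 of 39 were lower and 0 higher, with a median of -0.58. In a list of G1/S control genes 8 of 19 were lower and 7 higher, with a median of -0.06. Among all genes tested 31.8% were lower and 31% were higher, and the G1/S counts lay near these shares. The replication genes thus fell in 1 direction like the members, but more of them fell by at least 2-fold. By that rule 9 of the 39 replication genes and 4 of the 19 G1/S genes were lower. The same rule called 1 of the 46 members and 4.27% of all genes tested lower. Higher by it were 0 replication genes, 1 G1/S gene and 596 of the 14020 genes tested. The difference between the lists was not tested.

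**Figure D5:**
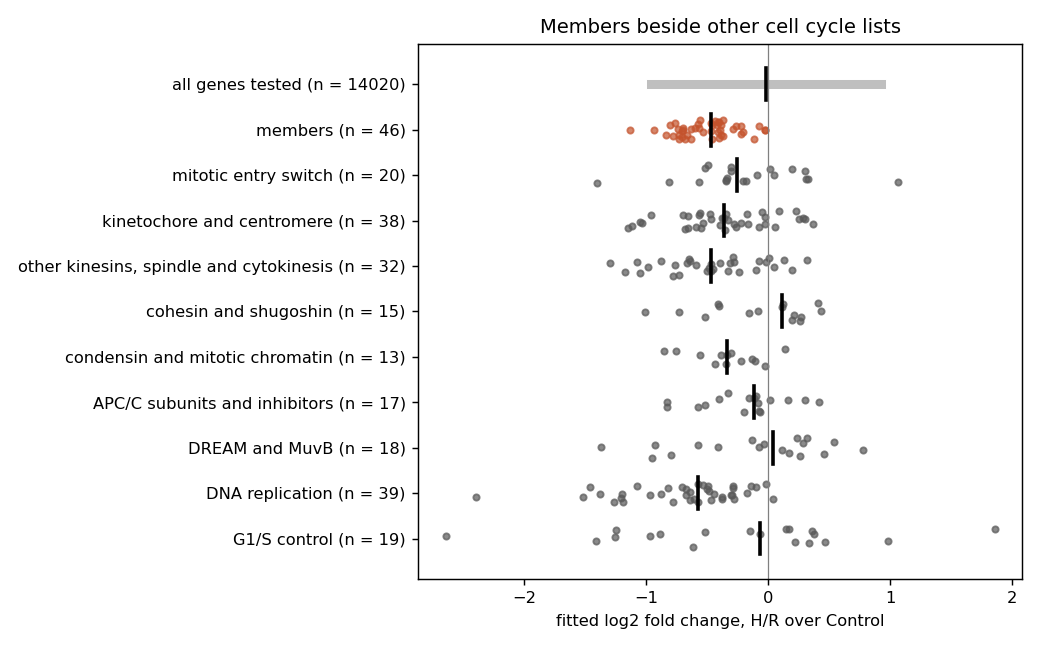
Fitted log2 fold change of H/R over Control for each gene of the members, of the 7 further G2/M lists and of the replication and G1/S lists, with black bars at the medians; for all 14020 genes tested the grey bar spans the 5th to 95th percentile. The members lie between -1.13 and -0.02, and the cohesin and DREAM lists have genes on both sides of 0.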

How the data were processed

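Total RNA of 6 AML12 samples (3 Control, 3 H6R2) had been sequenced by the authors from stranded mRNA libraries. The submitters' processing notes name Trimmomatic 0.36, Subread 1.5.1 with featureCounts, edgeR 3.12.1 and the builds GRCm38 and mm10; the strand setting of the counting and the annotation are not given in the sources used here. The authors deposited unnormalized read counts per gene, and the RPKM values deposited by the authors follow from the count, the exon length and the library total. Total counts were 20438746 to 21854790 per library.

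The quasi-likelihood test of edgeR 4.0.16 (R 4.3.3, filterByExpr, TMM, robust fit) was run on the counts. P-values of the 14020 genes kept, of 25330, were adjusted by Benjamini and Hochberg's method. Normalized counts are scaled to the mean of the 6 TMM-adjusted library sizes. Standard errors were derived from the F statistic. Members are lower or higher at an adjusted p under 0.05, and a second rule adds a fold change of at least 2, the thresholds of the study. The fit was tested on simulated data. The members, lists and rules were chosen with earlier results of these data known, and no set test was run. All 46 members may be named; counts by library are given for Cdk1, Ccnb1, Plk1, Foxm1, Top2a, Mki67 and the largest changes of each role group, and for Anln, Cenpe, Cenpf and Smc4, which were added after their values were seen. In each further list at most 3 genes per direction are named, apart from Ndc80 and Rbl1, which were added after their values were seen.

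Alternatives were DESeq2 1.42.0, scaling by upper quartiles or by library totals alone, omitting the count filter, at least 10 counts in every library, a replicate block, limma-trend 3.58.1 on log2(RPKM + 1) and log2(RPKM + 0.1), a fold threshold of 1.5, leaving out genes that share exons, and leaving out each library. Exons of 14 members overlap another gene, over a fraction of 0.0135 (Top2a) to 0.332 (Kif20a) of their length, so that part of their reads is uncertain. Near-identical gene copies were not examined. Promoters came from RefSeq on GRCm38.p6.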

Additional observations from a re-analysis of the deposited data

How the results depend on the processing

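The number of members called lower kept within 1.5 times of 40 in every alternative that tested all 46 members (39 to 44), and 0 members were called higher in each of them. DESeq2, no filter on low counts and the replicate block each gave 40. Same-numbered libraries did not deviate together over all genes tested (correlations of -0.02, 0.003 and -0.02). Counting noise also enters these correlations, so they cannot tell whether same-numbered cultures were handled together. The replicate block left the median at -0.47 and 1 member past both thresholds. Leaving out the 14 members that share exons left 32, of which 26 were lower, the smaller number following from the fewer genes tested. The scaling moved the sizes: the median over all genes was -0.08 when libraries were scaled by upper quartiles and -0.12 when by totals alone, and the median over the members moved to -0.54 and -0.57, which is -0.45 relative to all genes in both. It was -0.54 and -0.57 with limma-trend on log2(RPKM + 1) and log2(RPKM + 0.1). Under these 4 settings 2 members passed both thresholds (Kif20a beside Aurkb). In the main fit, 18 members passed with a fold threshold of 1.5, which 13% of all genes tested passed as lower. The other pathway genes called higher, 28 in number, were 16 with library totals alone and 14 with each limma-trend fit; the cause was not tested.

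Leaving out each library in turn gave 39 to 41 members lower, 1 past both thresholds, a median of -0.51 to -0.46, and 88 to 93 other pathway genes lower and 25 to 31 higher. Smc4 ranged from -0.082 without Control replicate 1 to 0.094 without Control replicate 2, where its sign turned. Mki67 missed the threshold without H/R replicate 1 (adjusted p = 0.05001 by edgeR, log2 fold change -0.68), and Ccnb2 passed without Control replicate 3 (adjusted p = 0.0483). Ccnb2, Cks2, Anln and Cenpe also passed as lower under some alternatives with all libraries. No member had under 245 counts in any library.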

Other observations

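Among 5958 genes with a mean of at least 500 normalized counts in Control, 84 (1.41%) stood at 1.2 times or more of the mean of the other Control libraries in Control replicate 2, against 30 in Control replicate 1 and 25 in Control replicate 3. Of the 44 members at that level, 4 were among the 84 (Cenpf, Cenpe, Mki67 and Smc4), while 1 (Ube2c) reached this ratio in Control replicate 1 and 0 in Control replicate 3. The ratio was 1.58 for Cenpf, 1.53 for Cenpe, 1.35 for Mki67 and 1.26 for Smc4. The genes with the largest ratios were Cep290 (1.95), a centrosomal and ciliary protein, and Ccdc88a (1.68), and Kif20b, a mitotic kinesin outside the members, had 1.48. The median exon length was 5244 bases for the 84 genes and 4423.5 bases for the 5958. The threshold and the genes were chosen after these values were seen, and their cause was not tested.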
